A study of Rattus norvegicus with 32 samples.

Results

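Cannabidiol given before a test with the anxiety cue was compared with vehicle given before a test with the neutral cue, across all genes of the rat nucleus accumbens shell. The question was how closely the treated, cue-exposed state matched the untreated, neutral one. Libraries were chosen by the treatment label alone: 8 of cannabidiol (CBD) with the anxiety cue and 8 of vehicle with the neutral cue, 16 of the 32 libraries in all, with none in both groups. Of 34322 genes in the table, 17059 held enough counts to be tested.

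The study conditioned wild-type rats with shocks in the presence of a cue, which was neutral or a lemon odour (the anxiety cue). Each rat met its cue again in later anxiety tests, and CBD or vehicle was given before those tests. Tissue was taken after a last shock, so both groups had been shocked. A further group of 8 libraries, vehicle with the anxiety cue, is set beside them where the cue and the drug need separate values. Drug and cue both differ between the 2 groups, and within this comparison alone their effects cannot be told apart. The labels do not give strain, sex, age or batch, or say whether each library came from its own rat. P-values thus reflect how far these libraries vary, and some of that variation may be technical.

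The nucleus accumbens shell belongs to the ventral striatum, a region that links motivational cues to behaviour. Most of its neurons are GABAergic medium spiny neurons, which carry either the dopamine receptor Drd1 or Drd2. CBD is a compound of the cannabis plant that is not intoxicating and has been reported to act on many receptors, channels and transporters. The series title speaks of mitochondrial transcripts and linoleic acid, so genes of the respiratory chain and of fatty acid metabolism are given first among the gene lists.

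Several libraries stood apart from the rest of their group. Total counts were 13.56 to 24 M in the CBD anxiety-cue libraries and 11.65 to 22.04 M in the vehicle neutral-cue libraries. Slc17a6 encodes the glutamate transporter of subcortical neurons outside the striatum. It reached 20 CPM (counts scaled to library size), taken before scaling between libraries, in vehicle neutral-cue libraries 4, 7 and 8 and in CBD anxiety-cue libraries 2 and 7, which are called high in Slc17a6. Library 7 of the CBD group was just above that limit, and at 19.6 CPM after scaling. Drd1 was under 200 CPM in these 5 libraries. The cortical marker Slc17a7 was 58.9 CPM in CBD anxiety-cue library 3 and 22.1 CPM in vehicle neutral-cue library 1. It was at most 8.65 CPM in the others of both groups, and no library was left out for it. Transcripts typical of liver marked CBD anxiety-cue libraries 3, 4, 5 and 6, each with at least 20 CPM of the albumin gene Alb, and no vehicle neutral-cue library. Transcripts typical of fat cells marked vehicle neutral-cue libraries 1 to 5 and CBD anxiety-cue libraries 1 and 2, each with at least 5 CPM of the perilipin gene Plin1. Refits without these libraries, with marker scores as covariates and with a block for library order are given beside the results they bear on.

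No gene passed the test. edgeR's quasi-likelihood test found 0 of 17059 genes (0%) at an adjusted p under 0.05, and the smallest adjusted p was 0.149. At an unadjusted p under 0.05 there were 1480 genes (8.68%), 744 higher (4.36%) and 736 lower (4.31%) in the CBD anxiety-cue group, where chance alone would give 853. Single libraries moved this count by over 1.5 times: it was 909, 937, 915 and 918 without CBD anxiety-cue libraries 5 and 3 and vehicle neutral-cue libraries 4 and 8, and 2378 and 2326 without CBD anxiety-cue library 2 and vehicle neutral-cue library 2. DESeq2 called 1 gene and limma-voom with quality weights called 0. The median log2 fold change was -0.01 with an SD of 0.34 over genes, and 8759 genes (51.3%) lay below 0.

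A gene that misses a threshold is not thereby shown to be alike, so the difference of each gene was also tested against fold bounds. With 2 one-sided tests per gene and adjustment over all genes, 12570 genes (73.7%) were bounded within 1.5-fold, 15863 (93%) within 2-fold and 6711 (39.3%) within 0.32 on the log2 scale, the narrowest bound tried. At the median gene the 95% interval reached 0.25 to each side on the log2 scale, a factor of 1.19. The remaining 1196 genes, 7.01%, could not be bounded within 2-fold. Their median level was 1.19 CPM, against 22.3 CPM for the bounded genes. Of these 1196 genes, 145 were at 10 CPM or more. In the plot of difference against level, the wide scatter sits at low levels, apart from a scatter of liver genes far above 0 and a few genes far below.

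**Figure D1:**
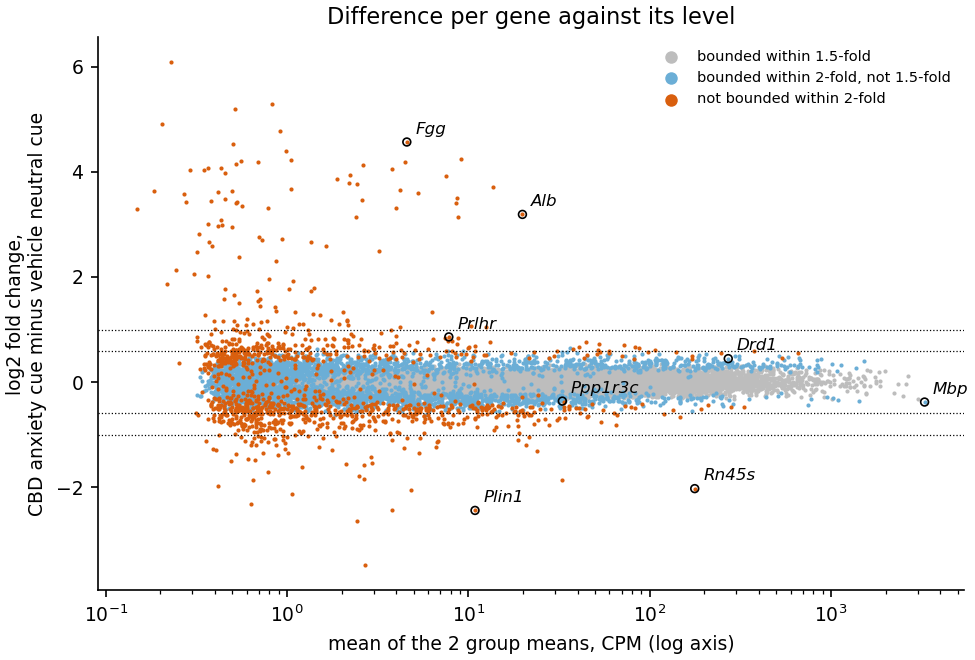
Log2 fold change of CBD with the anxiety cue over vehicle with the neutral cue (vertical), against mean group level in CPM (horizontal, log axis). Each point is 1 gene tested. Colours show the fold bound, 1.5 or 2, that the gene met by the adjusted p of the 2 one-sided tests. Dotted lines mark 1.5-fold and 2-fold. Most points lie between the inner lines, and the liver genes Alb and Fgg lie far above.

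The 2 groups separated without overlap for 2 genes (0.0117%), both lower in the CBD anxiety-cue libraries, and for up to 12 genes with 1 library left out (12 without CBD anxiety-cue library 2). Clybl encodes a mitochondrial citramalyl-CoA lyase. It ranged from 3.21 to 4.90 CPM (median 4.37) in the CBD anxiety-cue libraries and from 5.23 to 6.31 CPM (median 5.66) in the vehicle neutral-cue libraries. Its log2 fold change was -0.44 (SE 0.116, edgeR adjusted p = 0.563), with all 8 CBD libraries below all 8 vehicle libraries. Cabcoco1, which encodes a calcium-binding coiled-coil protein of cilia, ranged from 4.04 to 5.95 CPM (median 5.38) against 6.23 to 10.6 CPM (median 6.61). The difference was -0.50 (SE 0.145, edgeR adjusted p = 0.563). Both stayed lower in all 32 alternative settings tried, with adjusted p of 0.107 to 1 for Clybl and 0.0293 to 1 for Cabcoco1.

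Ppp1r3c had the smallest p of all genes. It encodes a subunit that brings protein phosphatase 1 to glycogen, and is best known from glycogen-storing cells, in brain the astrocytes. Its level was 25.5 to 31.8 CPM (median 29.1) in the CBD anxiety-cue libraries and 30.4 to 41.9 CPM (median 37.0) in the vehicle neutral-cue libraries. The log2 fold change was -0.36 (SE 0.0679, edgeR adjusted p = 0.149), and 6 of 8 CBD libraries were below every vehicle library. DESeq2 called it lower at -0.36 (adjusted p = 0.0136), and so did edgeR without vehicle neutral-cue library 3 (adjusted p = 0.0198). Over all alternatives the adjusted p ran from 0.00968 to 1, with the same direction in 32 of 32. In the vehicle anxiety-cue libraries Ppp1r3c was 27.9 to 36.3 CPM (median 32.4), between the other groups.

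The other lower genes of smallest p had varied roles. Scd2, a desaturase that makes monounsaturated fatty acids and is abundant in brain, was 2436 to 3286 CPM (median 2618) against 2865 to 4207 CPM (median 3299), a log2 fold change of -0.31 (SE 0.0813). For Scd2, 6 of 8 CBD libraries lay under all vehicle ones. Mpeg1, a pore-forming protein of macrophages and microglia, was 43.9 to 62.7 CPM (median 53.1) against 53.3 to 74.4 CPM (median 63.6), at -0.30. Laptm5, a lysosomal membrane protein of blood-derived cells and microglia, was 18.5 to 28.7 CPM (median 22.3) against 25.9 to 33.1 CPM (median 28.3), at -0.36, with 7 of 8 CBD libraries under all vehicle libraries. Prxl2a, a peroxiredoxin-like protein, and the zinc finger gene Zfp707l1 were at -0.31 and -0.47. These 5 genes shared an edgeR adjusted p of 0.563, and none was called.

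The RNA component of ribonuclease P, Rpph1, was also among the lower genes, but 1 library set its value. It was 35.6 CPM in vehicle neutral-cue library 8 and at most 0.991 CPM in the 7 others of that group, against 0.158 to 1.49 CPM in the CBD anxiety-cue libraries. The log2 fold change of -3.48 became -0.32 without that library. Rn45s, the ribosomal RNA precursor, had the same pattern: 1688 CPM in that library, at most 253.4 CPM in its group's others and 36.0 to 155.8 CPM in the CBD libraries. Its log2 fold change was -2.02, and -0.26 without the library.

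Among the genes with the smallest p and a higher level, Prlhr stood first. It encodes the receptor of prolactin-releasing peptide. Its level was 5.74 to 14.8 CPM (median 10.0) in the CBD anxiety-cue libraries and 3.55 to 8.69 CPM (median 5.45) in the vehicle neutral-cue libraries, a log2 fold change of 0.86 (SE 0.214, edgeR adjusted p = 0.563). In 5 of 8 CBD libraries it was above every vehicle library, and it stayed higher in 32 of 32 alternatives, at 0.51 or more. Vehicle anxiety-cue libraries held 4.86 to 9.13 CPM of Prlhr (median 7.28), and the log2 difference from that group to the CBD anxiety-cue group was 0.54.

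Gpc6, a glypican of the cell surface, was 11.4 to 20.9 CPM (median 15.9) against 9.49 to 14.9 CPM (median 12.0), at 0.41 (SE 0.111). Clip4, a microtubule-linker protein, was at 0.25, the DNA-binding protein gene Ahdc1 at 0.27 and the nuclear pore gene Nup214 at 0.28. For these 4 genes 5 or 6 of 8 CBD libraries were above every vehicle neutral-cue library. For Clip4, Ahdc1 and Nup214 the vehicle anxiety-cue group lay about as high. The log2 differences from it to the CBD anxiety-cue group were 0.03, -0.02 and -0.06. Hsd17b14, a steroid dehydrogenase, was at 1.01 but at levels of 0.906 CPM or less in every library of both groups. The clotting factor genes F9 and Fgg, made in liver, completed the higher genes: Fgg was 0.0526 to 27.8 CPM against 0.0896 to 1.18 CPM, and F9 had a median of 0 CPM in the vehicle neutral-cue group. All 8 higher genes had an edgeR adjusted p of 0.563.

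**Figure D2:**
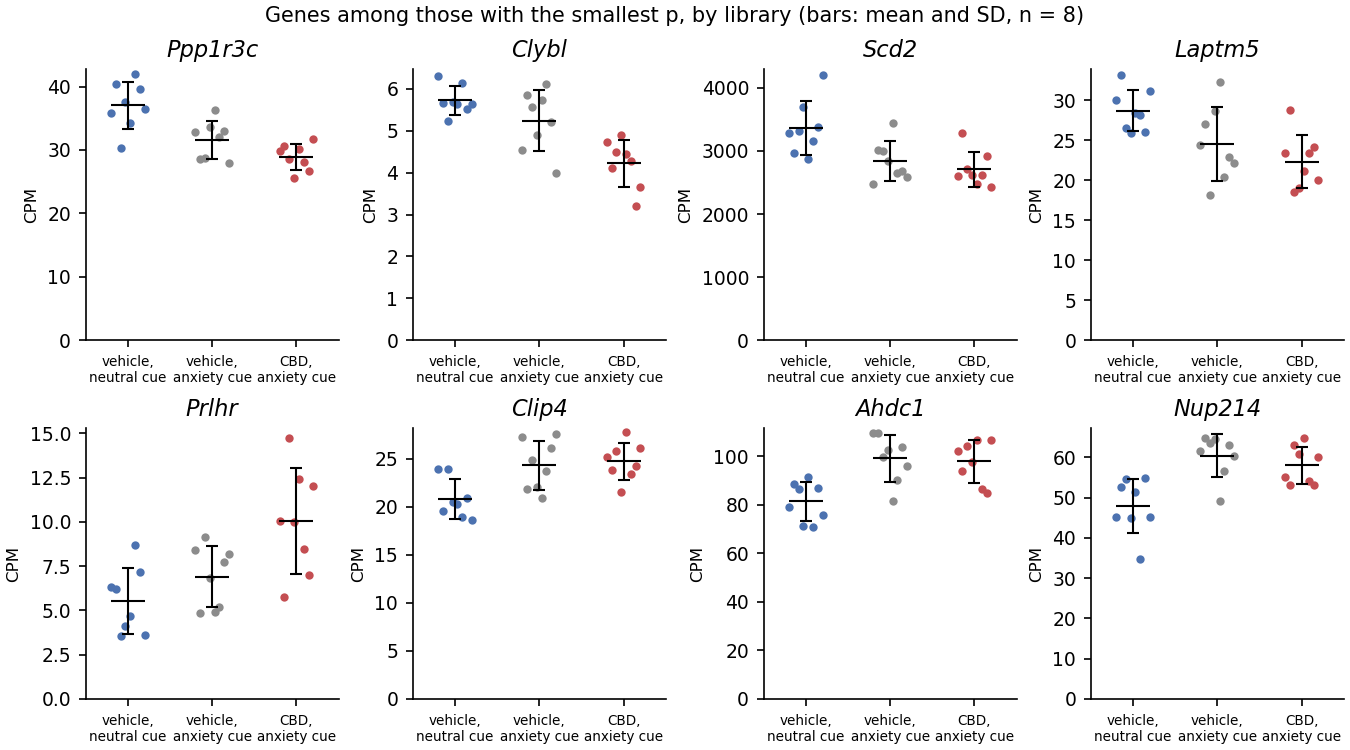
Level in CPM of 8 genes among those with the smallest p, in each library (points) of the vehicle neutral-cue, vehicle anxiety-cue and CBD anxiety-cue groups, with the group mean and SD (bars, n = 8). The outer groups do not overlap for Clybl and overlap by a few libraries for the others. The middle group lies between the outer groups for Ppp1r3c and Prlhr and beside the CBD group for Clip4, Ahdc1 and Nup214.

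Nuclear genes of the respiratory chain were slightly lower in the CBD anxiety-cue group, and every one was bounded close to the vehicle neutral level. Complex I takes electrons from NADH, and complexes II to V pass them on to oxygen and make ATP. Of 36 complex I genes tested, 0 passed, 33 were below 0 and the median log2 fold change was -0.12. For complexes II to V, 0 of 41 passed, 39 were below 0 and the median was -0.11. Over all genes tested 51.3% were below 0 and the median was -0.01. All 36 and all 41 genes were bounded within 1.5-fold, against 73.7% of all genes. Lower at an unadjusted p under 0.05 were 6 of 36 and 8 of 41, against 4.31% of all genes, and none was higher.

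Single members of these lists differed by little. Ndufa8, an accessory subunit of complex I, was 41.8 to 62.0 CPM (median 50.2) in the CBD anxiety-cue libraries and 46.3 to 82.5 CPM (median 56.3) in the vehicle neutral-cue libraries, at -0.30 (SE 0.106). Ndufa12 and Ndufb8, of the same complex, were at -0.25 and -0.24. Uqcr10 of complex III was at -0.27, Cox6a1 of complex IV at -0.19 and Sdhc of complex II at -0.18. Each of these 6 genes had an edgeR adjusted p between 0.563 and 0.57, and their groups overlapped. The textbook subunits Cox4i1 and Uqcrfs1 were at -0.15 and -0.11, with intervals of -0.32 to 0.02 and -0.24 to 0.03.

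The library means of these lists show how much single libraries weigh. Complex I genes had a mean log2 CPM of 5.73 (SD 0.0945, n = 8) in the CBD anxiety-cue group and 5.84 (SD 0.201, n = 8) in the vehicle neutral-cue group. Vehicle neutral-cue library 6 was the highest of the 16, at 6.23 for complex I genes and 7.12 for those of complexes II to V. Without it the medians were nearer to 0, at -0.05 and -0.04. The vehicle anxiety-cue group differed from vehicle neutral by a median log2 of -0.16 in both lists, and from there to the CBD anxiety-cue group both medians were 0.04. These 3 differences share libraries and add up, so they are given side by side only.

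Other mitochondrial lists were closer still to the vehicle neutral level. Enzymes of the tricarboxylic acid cycle, which feeds the respiratory chain, had 21 of 23 genes below 0 (median -0.08), and all 23 were bounded within 1.5-fold. Mitochondrial ribosomal proteins, which make the few proteins of the organelle's own genome, had 57 of 73 genes below 0 (median -0.07), and 72 were bounded within 1.5-fold. Mrps23, of the small subunit, had one of the smallest p among them, at -0.18. Import and dynamics genes were at -0.07 (29 of 38 below 0). The 9 genes of the mitochondrial calcium uniporter lay on both sides of 0, with a median of 0.03. None of the members of these lists passed the test. Single libraries set much of these medians: without vehicle neutral-cue library 4 the tricarboxylic acid cycle median was -0.03, and without library 6 the mitochondrial ribosomal median was -0.02 and the import median -0.03.

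Genes that make and handle polyunsaturated fatty acids leaned lower, again with none past the test. Linoleic acid is lengthened and desaturated to arachidonic acid by Fads1, Fads2 and elongases. Fads1 was 106.5 to 156.1 CPM (median 137.8) against 115.1 to 204.8 CPM (median 151.4), at -0.16 with an interval of -0.36 to 0.04. Fads2 was 72.7 to 91.1 CPM (median 80.2) against 79.4 to 108.6 CPM (median 90.5), at -0.19 with an interval of -0.51 to 0.12. Both were bounded within 1.5-fold. Over the list, 33 of 41 genes were below 0 and the median was -0.16. At an unadjusted p under 0.05, 9 of 41 were lower, against 4.31% of all genes.

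Within the same list Plaat3, a phospholipase that releases fatty acids from membrane lipids, was 26.3 to 32.6 CPM (median 31.8) against 29.9 to 48.1 CPM (median 37.9), at -0.32 (SE 0.104, edgeR adjusted p = 0.563). Scd, the desaturase of liver and fat, was 8.57 to 22.8 CPM (median 12.8) against 6.10 to 93.5 CPM (median 24.4), at -1.31. The vehicle neutral-cue libraries above 29 CPM of Scd were 1, 3, 4 and 5, which carried fat-cell transcripts, and without the libraries high in Plin1 its value was 0.08. Pparg, the nuclear receptor of fat cells and one of the reported CBD targets, was at -1.79, with 0.238 to 3.82 CPM (median 0.534) against 0.307 to 9.35 CPM (median 3.92). Without the libraries high in Plin1 it was at -0.23, and vehicle neutral-cue libraries 6, 7 and 8 held 0.307 to 0.782 CPM, within the range of the CBD group.

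Fatty acid oxidation and cholesterol synthesis showed the same lean. Beta oxidation genes had a median of -0.13 (20 of 26 below 0), and Echs1, an enoyl-CoA hydratase, was at -0.21 (SE 0.0704). Echs1 was 41.3 to 49.4 CPM (median 44.6) against 44.4 to 64.0 CPM (median 51.5), and 4 of 8 CBD libraries lay under all vehicle libraries. Cholesterol synthesis genes had a median of -0.18 (20 of 22 below 0), and Cyp51, a sterol demethylase, was at -0.25. Leaving out the 6 libraries of the series high in Slc17a6 moved the cholesterol median to -0.05, and leaving out vehicle neutral-cue library 4 alone to -0.07.

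The endocannabinoid genes, whose receptor Cnr1 is found on striatal terminals, were mostly near 0. Cnr1 was 51.7 to 114.8 CPM (median 67.8) against 39.2 to 245.1 CPM (median 72.3), at -0.34 with an interval of -1.09 to 0.41. The 2 highest vehicle neutral-cue libraries, 4 and 8 at 245.1 and 158.3 CPM, were among those high in Slc17a6, and without library 4 the value was 0.03. Faah, which breaks down anandamide, was at -0.06 and bounded within 1.5-fold. Abhd12 and Abhd4, hydrolases of endocannabinoid and related lipids, were at -0.11 and -0.16, both bounded within 1.5-fold. Of 17 genes, 12 were below 0, the median was -0.09 (-0.05 without vehicle neutral-cue library 4) and 0 passed.

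Reported CBD targets other than these, mainly receptors and channels, had a median of -0.02 with 8 of 17 above 0. Only 5 of 17 could be bounded within 1.5-fold, against 73.7% of all genes, so for most of them these libraries leave a wide interval. Gpr12, an orphan receptor, had one of the smallest p in this list: 9.79 to 18.7 CPM (median 15.1) against 7.76 to 14.6 CPM (median 12.5), at 0.34 (SE 0.141). In 5 of 8 CBD libraries Gpr12 was above all vehicle ones.

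**Figure D3:**
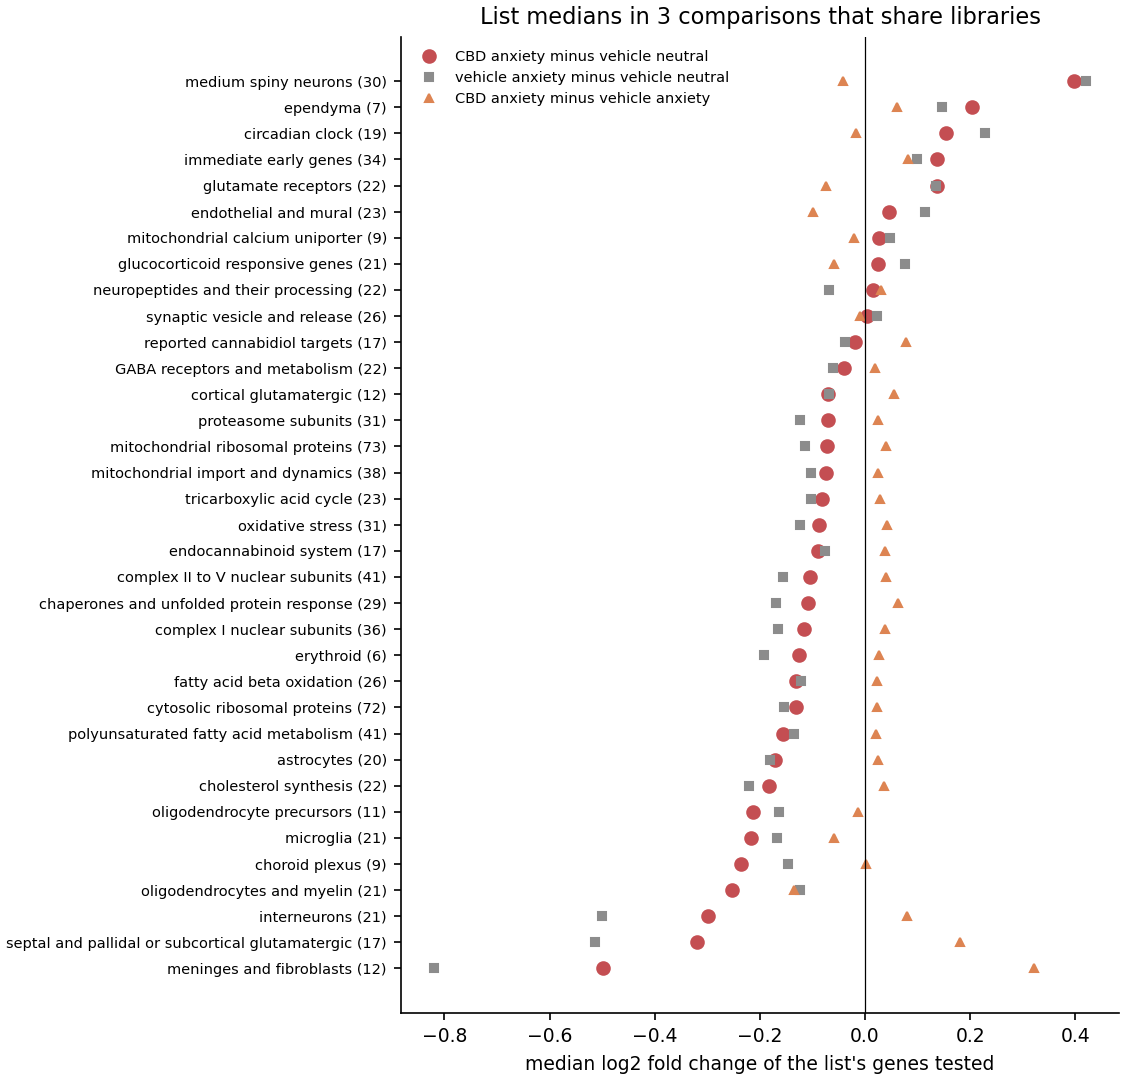
Median log2 fold change of each gene list (number of genes tested in brackets) in 3 comparisons that share libraries: CBD anxiety cue over vehicle neutral cue, vehicle anxiety cue over vehicle neutral cue, and CBD anxiety cue over vehicle anxiety cue. Hepatocyte and adipocyte lists, at 3.05 and -1.42 in the first comparison, lie outside the axis and are left out.

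Activity-regulated genes lay above 0 more often than below, and none passed. Immediate early genes, which neurons switch on within minutes of firing, had a median of 0.14, with 27 of 34 above 0 against 48.7% of all genes. Only 1 of 34 was higher at an unadjusted p under 0.05, against 4.36% of all genes. The list's lowest mean levels among the 16 libraries were in the 5 high in Slc17a6, at 3.58 to 3.88 on the log2 CPM scale. The tissue scores are mean levels of 4 marker lists: oligodendrocytes and myelin, septal and pallidal, cortical glutamatergic, and choroid plexus. The first marks a glial cell type, so these scores do not stand for neighbouring tissue alone. With them as covariates the immediate early median was 0.02. Fos was 10.2 to 22.3 CPM (median 13.5) in the CBD anxiety-cue libraries and 10.3 to 24.2 CPM (median 12.9) in the vehicle neutral-cue libraries, at 0.08 with an interval of -0.49 to 0.64. Arc, a synaptic protein, was 17.4 to 79.2 CPM (median 51.4) against 12.6 to 70.2 CPM (median 42.3), at 0.46. The transcription factor genes Egr1 and Fosl2 were at 0.42 and 0.53. For Fosl2 5 of 8 CBD libraries were above every vehicle neutral-cue library and 1 was below them all.

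Clock genes leaned higher too. Per1, a clock repressor that also responds to activity and glucocorticoids, was 106.7 to 183.8 CPM (median 165.1) against 82.6 to 151.9 CPM (median 123.9), at 0.36 (SE 0.141, edgeR adjusted p = 0.563). Nr1d1, the REV-ERB alpha repressor, was 46.0 to 63.2 CPM (median 58.6) against 31.4 to 52.7 CPM (median 46.3), at 0.32 (SE 0.103). Each had 5 of 8 CBD libraries above all vehicle neutral-cue libraries. Of 19 clock genes, 16 were above 0 and the median was 0.15, and with the tissue scores as covariates it was 0.005. Without CBD anxiety-cue library 5 it was 0.10. The labels do not give the time of day at which tissue was taken.

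Stress-hormone genes were close between the groups. Of 21 glucocorticoid-responsive genes, 12 were above 0, the median was 0.03 and 19 were bounded within 1.5-fold. Fkbp5, a co-chaperone that glucocorticoids induce, was 56.2 to 117.4 CPM (median 75.7) against 46.9 to 104.5 CPM (median 81.6), at 0.10. The receptor genes Nr3c1 and Nr3c2, for glucocorticoids and mineralocorticoids, were at 0.08 and 0.24, and all 3 were bounded within 1.5-fold.

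Genes of protein making and quality control were lower in nearly all members and by little. Cytosolic ribosomal protein genes were below 0 in 72 of 72, with a median of -0.13, and 70 of them were bounded within 1.5-fold. Rpl32 was 93.7 to 117.5 CPM (median 100.9) against 91.2 to 188.5 CPM (median 111.9), at -0.23. The highest vehicle value belonged to library 6 again, and without it the list's median was -0.02. These genes have many near-identical copies, and the labels do not say how reads were split among copies. Proteasome genes, which degrade tagged proteins, had a median of -0.07 (27 of 31 below 0, and -0.02 without library 6), with Psmd4 at -0.19 and Psmc5 at -0.25.

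Chaperones of the endoplasmic reticulum and heat shock response had a median of -0.11 (24 of 29 below 0). Manf, secreted under endoplasmic reticulum stress, was at -0.17 and Dnajb11 at -0.14. Antioxidant genes were below 0 in 22 of 31 (median -0.09), with a median of -0.04 without vehicle neutral-cue library 4. Gpx4, which reduces lipid peroxides, was 116.7 to 155.9 CPM (median 132.2) against 131.1 to 214.6 CPM (median 159.1), at -0.29 (SE 0.103), and Prdx6 was at -0.23. The uncoupling protein gene Ucp2 was at -0.30 with an interval of -0.62 to 0.03. Gpx3, a secreted peroxidase, was at -0.81, and -0.39 without vehicle neutral-cue library 4, the highest at 97.7 CPM. None of the named genes in these 2 lists passed.

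Synaptic genes lay on both sides of 0. Glutamate receptor genes had a median of 0.14 with 12 of 22 above 0, which was 0.09 without vehicle neutral-cue library 4 and 0.02 with the tissue scores as covariates. Gria1, an AMPA receptor subunit, was 289.2 to 478.9 CPM (median 414.2) against 201.3 to 368.1 CPM (median 340.2), at 0.30 (SE 0.121), and 5 of 8 CBD libraries were above all vehicle libraries. GABA genes had a median of -0.04, vesicle release genes 0.004 and neuropeptide genes 0.01. Pcsk2, an enzyme that cuts propeptides into active peptides, was 89.4 to 241.0 CPM (median 157.6) against 78.8 to 176.2 CPM (median 127.5), at 0.47.

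Markers of medium spiny neurons were higher in the CBD anxiety-cue group and varied widely within both groups. Of 30 such genes, 29 were above 0, the median was 0.40 and 0 passed. Only 4 of 30 were bounded within 1.5-fold, and 25 within 2-fold. In bulk tissue, fewer cells of a type and less RNA per cell cannot be told apart. The mean log2 CPM of the list was 7.55 (SD 0.529, n = 8) against 7.12 (SD 0.719, n = 8).

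Drd1 was 132.5 to 474.8 CPM (median 318.9) in the CBD anxiety-cue libraries and 56.6 to 361.8 CPM (median 258.0) in the vehicle neutral-cue libraries, at 0.45 (SE 0.291). Drd2 was at 0.46, Pdyn, the prodynorphin gene of the direct pathway, at 0.50, and Adora2a, the adenosine receptor of the indirect pathway, at 0.35. Penk, the proenkephalin gene, was 292.0 to 995.6 CPM (median 637.4) against 192.5 to 908.4 CPM (median 639.0), at 0.20. Rarb, a retinoic acid receptor of striatal neurons, had the smallest p of the list, at 0.61 (SE 0.266). The lowest libraries of both groups were those high in Slc17a6. Without the 6 libraries of the series high in Slc17a6 the list's median was 0.21, and with the tissue scores as covariates it was 0.01.

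Markers of neighbouring tissue and of other neurons were lower. Septal, pallidal and subcortical glutamatergic markers had a median of -0.32 (13 of 17 below 0). It was -0.12 without vehicle neutral-cue library 8 and 0.02 among odd library places alone. Their summed level was 451.9 to 785.9 CPM against 487.2 to 1149 CPM. Slc17a6 was 0.214 to 31.8 CPM (median 6.61) against 3.18 to 39.8 CPM (median 10.5), at -0.90 (SE 0.766). Interneuron markers were below 0 in 18 of 21 (median -0.30), and the median was 0.01 with the tissue scores as covariates. Pvalb, of fast-spiking interneurons, was 6.34 to 24.4 CPM (median 10.7) against 12.4 to 37.3 CPM (median 26.8), at -0.96 (SE 0.363), with 5 of 8 CBD libraries below all vehicle ones. Sst, of another interneuron class, was at -0.16 and bounded within 1.5-fold.

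Glial markers were lower in all 4 glial lists, with no gene past the test. Oligodendrocyte and myelin genes were below 0 in 21 of 21, with a median of -0.25. Mbp, a main protein of myelin, was 1845 to 3870 CPM (median 2698) against 3214 to 4716 CPM (median 3569), at -0.38 (SE 0.154, edgeR adjusted p = 0.563), and 6 of 8 CBD libraries were under all vehicle libraries. The exceptions were libraries 2 and 7, the CBD libraries with the most Slc17a6. Mobp and Mog, also of myelin, were at -0.35 and -0.30. Oligodendrocyte precursors had a median of -0.21 (9 of 11 below 0), with Bcas1, of newly forming oligodendrocytes, at -0.41. Astrocyte genes had a median of -0.17 (18 of 20 below 0), and Aldoc, a glycolytic enzyme of astrocytes, was 542.4 to 708.3 CPM (median 609.1) against 601.1 to 941.2 CPM (median 750.3), at -0.28 (SE 0.0931). These medians were nearer to 0 in some refits. The myelin median was 0.01 among odd library places alone. With tissue, liver and fat scores as covariates the precursor median was 0.01 and the astrocyte median -0.0022, and without vehicle neutral-cue library 5 the precursor median was -0.11.

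Microglia genes had a median of -0.22, with 19 of 21 below 0. At an unadjusted p under 0.05, 7 of 21 were lower, against 4.31% of all genes. Such shares were not particular to microglia. They were 5 of 11 for oligodendrocyte precursors, 8 of 31 for antioxidant, 6 of 26 for beta oxidation and 6 of 29 for chaperone genes. Other lists had few, with 1 of 23 for the tricarboxylic acid cycle and 0 of 22 for GABA genes. Tyrobp, a signalling adaptor of microglial receptors, was 2.58 to 4.74 CPM (median 3.22) against 3.81 to 7.57 CPM (median 4.93), at -0.54 (SE 0.163), and 5 of 8 CBD libraries were below all vehicle libraries. Ctss, a lysosomal protease, was 128.9 to 168.1 CPM (median 141.6) against 149.4 to 207.5 CPM (median 180.1), at -0.28 (SE 0.0986), with 6 of 8 below. The list's median log2 difference between vehicle anxiety and vehicle neutral was -0.17, and from vehicle anxiety to CBD anxiety it was -0.06. With the tissue scores as covariates the median against vehicle neutral was -0.06, with liver and fat scores added it was -0.03, and without libraries high in Plin1 it was -0.43.

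A few genes passed once the libraries high in Slc17a6 were left out. With those 6 libraries of the series removed, edgeR called 4 of 17261 genes (0.0232%), all lower: Gpnmb, Cd63, Adgre1 and Itgb2, which are named here after their values were seen. That left CBD anxiety-cue libraries 1, 3, 4, 5, 6 and 8, of which 3 to 6 carried liver transcripts and 1 fat-cell transcripts. Vehicle neutral-cue libraries 1, 2, 3, 5 and 6 were left, and all but 6 carried fat-cell transcripts. Gpnmb is a glycoprotein of activated phagocytes, Cd63 a lysosomal tetraspanin, Adgre1 the F4/80 antigen of macrophages and microglia, and Itgb2 the common beta chain of leukocyte integrins. Their log2 fold changes were then -1.44, -0.55, -0.87 and -0.67, with adjusted p of 0.0337, 0.0337, 0.033 and 0.0337. With all libraries they were -0.54, -0.37, -0.44 and -0.35, and none passed.

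CBD anxiety-cue library 2 weighed most on these 4 genes. Gpnmb was 32.0 CPM in that library and 5.12 to 8.59 CPM in the 7 others of its group, against 6.34 to 27.7 CPM (median 8.65) in the vehicle neutral-cue libraries. Vehicle libraries 1, 2 and 3, at 21.2 to 27.7 CPM of Gpnmb, also carried fat-cell transcripts. Vehicle libraries 4 and 5 held more Plin1, at 42.1 and 35.95 CPM, without such Gpnmb levels. Meningeal and fibroblast markers had a mean log2 CPM of 4.19 in CBD library 2. They were at 3.91, 4.12 and 4.10 in vehicle libraries 1, 2 and 3, and at most 3.37 in the other libraries of both groups. What raised these genes in those libraries was not tested. Cd63 was 108 CPM in CBD library 2 and 47.7 to 72.2 CPM in the others, against 71.8 to 97.7 CPM (median 87.8). With library 2 alone left out, the log2 fold changes were -1.11 for Gpnmb and -0.50 for Cd63, and the lowest adjusted p over single libraries left out was 0.263 for each of the 4 genes. Over all alternatives the adjusted p of these genes ran from 0.0245 to 1.

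**Figure D4:**
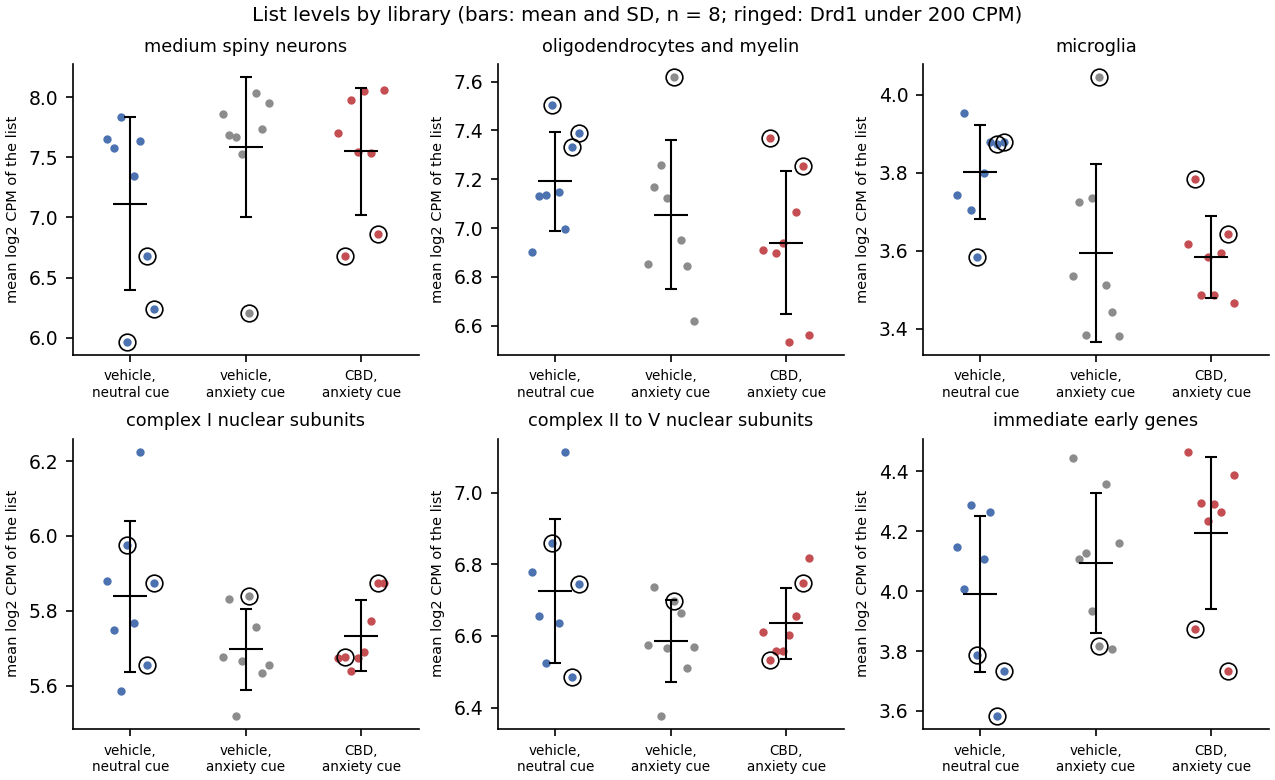
Mean log2 CPM of 6 gene lists in each library (points) of the vehicle neutral-cue, vehicle anxiety-cue and CBD anxiety-cue groups, with group mean and SD (bars, n = 8). Rings mark libraries with under 200 CPM of Drd1. Ringed libraries are the lowest for medium spiny neurons and among the highest for myelin, and vehicle neutral-cue library 6 is the highest point of both respiratory chain panels.

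Markers of tissue other than brain gave the largest fold changes and followed the order of the libraries. Hepatocyte markers were above 0 in 12 of 14 (median 3.05), and adipocyte markers below 0 in 10 of 10 (median -1.42, and -0.95 without vehicle neutral-cue library 4). These 14 of 20 listed hepatocyte markers held enough counts over all 32 libraries, which include liver-carrying libraries of other groups. With only the 16 libraries of the 2 groups, the hepatocyte median over the markers still tested was 0.63. Alb was 2.21 to 106.6 CPM (median 20.8) in the CBD anxiety-cue libraries and 2.02 to 9.66 CPM (median 3.03) in the vehicle neutral-cue libraries, at 3.19 (SE 0.953). Fgb, the fibrinogen beta chain, was at 4.24. Plin1 was 0.231 to 15.5 CPM (median 1.14) against 0.167 to 42.1 CPM (median 20.3), at -2.44 (SE 0.889). The fat-cell genes Adipoq and Pnpla2 were at -2.43 and -0.68. The summed level of 14 hepatocyte markers was 30.2 to 404.5 CPM against 25.1 to 75.3 CPM, and that of 10 adipocyte markers 110.8 to 263.9 CPM against 92.9 to 341.4 CPM.

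Library titles are numbers, and ordered by them the first 20 libraries alternate. The 10 at odd places (1 to 19) held 5.95 to 42.1 CPM of Plin1 and at most 5.29 CPM of Alb. The 10 at even places (2 to 20) held 33.2 to 227 CPM of Alb and at most 1.77 CPM of Plin1. The 12 at places 21 to 32 held at most 2.06 CPM of Plin1 and 9.66 CPM of Alb. Summed adipocyte markers overlapped between the places, at 193.7 to 341.4 CPM at odd places, 137.2 to 243 CPM at even places and at most 189.5 CPM at the last 12. The labels do not say what the numbers stand for, and this ordering was looked at after the values were seen. Vehicle neutral-cue libraries took 5 odd places, 0 even places and 3 of the last 12, and CBD anxiety-cue libraries took 2, 4 and 2.

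**Figure D5:**
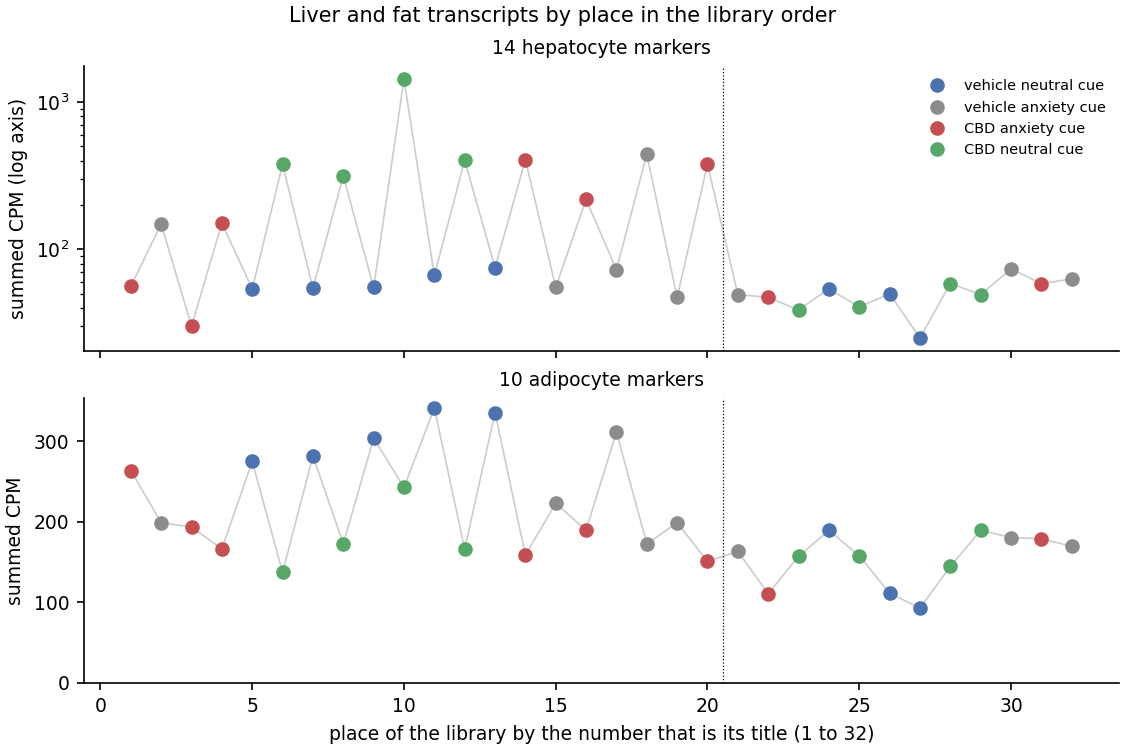
Summed level in CPM of 14 hepatocyte markers (upper panel, log axis) and 10 adipocyte markers (lower panel) in all 32 libraries, placed in the order of the numbers that are their titles and coloured by group, with a dotted line after place 20. Hepatocyte sums are 148.5 to 1427 CPM at even places up to that line and at most 75.3 CPM elsewhere.

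Refits within this order changed the counts. With the 3 kinds of place as a block, 0 genes passed, 688 had an unadjusted p under 0.05, and Alb was at 0.03 and Plin1 at -0.84. The block kept Ppp1r3c at -0.36, Clybl at -0.47 and the complex I median at -0.10. Among odd places alone (2 CBD anxiety-cue against 5 vehicle neutral-cue libraries) 0 genes passed, 172 had an unadjusted p under 0.05, and the medium spiny neuron median was -0.14. Among places 21 to 32 (2 against 3) 0 passed, 799 had an unadjusted p under 0.05, and that median was 0.68. Even places held no vehicle neutral-cue library, so they give no value.

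Leaving out the libraries high in Plin1 turned the count of 0 into 1254 of 17565 genes (7.14%), 682 higher (3.88%) and 572 lower (3.26%). That refit sets CBD anxiety-cue libraries 3 to 8 against vehicle neutral-cue libraries 6, 7 and 8 alone. CBD libraries 3 to 6 are at even places, which hold no vehicle neutral-cue library, and carry liver transcripts. The vehicle libraries left are all at places 21 to 32, so group and place can hardly be told apart here. They include libraries high in Slc17a6 and poor in Drd1 (7 and 8) and the one that stood highest in respiratory chain genes (6). CBD library 7, also high in Slc17a6, stays in. In it the medium spiny neuron median was 0.80, the microglia median -0.43 and the complex I median -0.19. Lower calls numbered 6 of 21 among microglia genes, 5 of 36 in complex I and 5 of 31 in the proteasome, and higher calls 4 of 19 among clock genes. Lower calls were also 5 of 41 among polyunsaturated fatty acid genes, 4 of 31 among antioxidant genes and 3 of 20 among astrocyte genes. Glucocorticoid-responsive genes had 3 of 21 lower and 1 higher, and GABA genes 3 of 22 lower. Glutamate receptor genes had 3 of 22 higher and 1 lower. Some lists had few or none. Lower calls were 0 of 72 for cytosolic ribosomal proteins and 2 of 41 for complexes II to V. They were 3 of 73 for mitochondrial ribosomal proteins and 0 of 22 for cholesterol synthesis. Not every list is given here. Leaving out libraries high in Alb instead gave 0 calls and 195 genes at an unadjusted p under 0.05. Only CBD anxiety-cue libraries 1, 2, 7 and 8 were then left, against all 8 vehicle neutral-cue libraries. Of those CBD libraries, 2 and 7 were high in Slc17a6.

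As whole profiles the groups were about as close to each other as libraries within a group. The median Spearman correlation of log2 CPM across genes was 0.9888 over 28 pairs within the CBD anxiety-cue group, 0.9799 over 28 pairs within the vehicle neutral-cue group and 0.9845 over the 64 pairs between them. Pairs of CBD anxiety-cue with vehicle anxiety-cue libraries had a higher median, 0.9887. Vehicle neutral-cue with vehicle anxiety-cue pairs had 0.9833, and pairs within the vehicle anxiety-cue group 0.9876. Genes are not independent replicates, so these are descriptions. On the first principal component of all genes (27.1% of the variance) the mean scores were 2.57 (SD 28.6) and -22.7 (SD 30.3), a difference of 25.2. The exact permutation test, 2-sided over 12870 splits, gave p = 0.111 and 0.463 after adjustment over 5 components. The second component (13.7%) gave an exact permutation p of 0.185, and none of the 5 passed. On the 500 most variable genes the first component gave an exact permutation p of 0.0149, adjusted 0.0746. Liver genes such as Fgg and Alb led the positive end of the first component, and Slc17a6 was among the genes that led the negative end. The lowest scores of the 16 libraries were those of the 5 libraries high in Slc17a6, from -73.0 to -33.1, and the others lay between -16.1 and 36.1.

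Against vehicle with the anxiety cue, the same fit gave counts that can be set beside these. Vehicle with the anxiety cue against vehicle with the neutral cue had 0 calls and 2175 genes (12.7%) at an unadjusted p under 0.05. CBD with the anxiety cue against vehicle with the anxiety cue had 0 calls and 270 such genes (1.58%). Bounded within 1.5-fold were 12303 genes (72.1%) in the former and 13481 (79%) in the latter, against 12570 (73.7%) for CBD with the anxiety cue against vehicle with the neutral cue. All 3 share libraries, and a difference between these counts was not tested.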

How the data were processed

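The authors deposited counts of reads per gene, whole numbers for 34322 gene symbols in 32 libraries of polyA-selected RNA, per the labels' protocols. The submitters' processing notes list STAR, featureCounts and DESeq2 without versions, and 2 builds, mRatBN7.2 and Rnor_6.0, without saying which was counted on. Strand settings are not stated, so overlapping, antisense and near-identical genes are uncertain. Of the symbols, 27234 matched RefSeq names of assembly GRCr8. No pair of the 16 libraries held identical values, and 0 columns belonged to other series.

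The test was that of edgeR 4.0.16 under R 4.3.3 (filterByExpr by group, TMM, quasi-likelihood). All 32 libraries were fitted with a mean per group, and Benjamini-Hochberg adjusted p-values over 17059 genes were called at 0.05. "At" a value means that log2 fold change, CBD anxiety cue over vehicle neutral cue. Bounds used 2 one-sided tests on the fitted change and its SE. CPM are TMM-scaled, and log2 CPM carry a prior count of 2. Alternatives used DESeq2 1.42.0, limma 3.58.1, other filters and scalings, covariates and left-out libraries. Scripts were tested on simulated data.

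Members, gene lists and the rule for naming genes were chosen with earlier results of these data known. The rule takes the 8 smallest p per direction, 3 per list, genes without overlap and a preset group, and not all are printed. Genes known only by a locus number are counted and not named. Ttr and the mitochondrial genome's own genes are not analysed here. Library numbers follow the order of deposition and pair nothing.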

Additional observations from a re-analysis of the deposited data

Results flagged for a closer look

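Single libraries far from the other 7 of their group gave 19 flags over 244 groups of values (7.79%). The limit would flag about 1 in 20 for independent values of normal spread. Gene values were CPM without a log scale, and some genes were named after their values were seen. The share is thus a description and cannot be set against chance. In CBD anxiety-cue library 2, Gpnmb (32.0 CPM), Cd63 (108 CPM), Adgre1 (19.1 CPM) and Itgb2 (15 CPM) were far above the others. The mean log2 CPM of neuropeptides (5.66) and ependyma (0.91) was far below them in that library. It was also high in Slc17a6 and carried fat-cell transcripts. In CBD anxiety-cue library 1, Plin1 (15.5 CPM) and Adipoq (5.39 CPM) stood above the rest. Library 7 of that group stood out for Rpph1 (1.49 CPM), library 5 for a low Plaat3 (26.3 CPM), library 3 for Nr3c1 (99.98 CPM) and library 8 for the mean log2 CPM of uniporter genes (5.05).

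In vehicle neutral-cue library 6, Echs1 (63.99 CPM), Rpl32 (188.5 CPM) and Alb (9.66 CPM) were far above the others of the group, and Faah (30.3 CPM) far below. In library 8, Rpph1 (35.6 CPM) and Rn45s (1688 CPM) stood above, and in library 4 Gpx3 (97.7 CPM). What set these libraries apart was not tested.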

How the results depend on the processing

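No paired analysis was possible because library numbers follow only the order of deposition. The count of 0 genes past the threshold held in 28 of 32 alternatives. It was 1 with DESeq2, 4 without libraries high in Slc17a6, 1254 without those high in Plin1, and 0 to 1 with single libraries left out (1 without vehicle neutral-cue library 3). Genes at an unadjusted p under 0.05 were 2315 with no filter on low counts, 640 with tissue scores, 945 with liver and fat scores, 787 with both, 195 without libraries high in Alb, 4703 without those high in Plin1, 688 with the block for place, 172 in odd places and 799 in places 21 to 32, and 909 to 2378 with single libraries left out. Genes within the narrowest bound (0.32 on the log2 scale) numbered 3509 without libraries high in Alb, 1698 without those high in Plin1, and 0 in odd places and in places 21 to 32. Those bounded within 1.5-fold were 8108 and 5989 in the latter, 8983 without libraries high in Plin1, and 11843 to 12892 with single libraries left out. Genes without overlap numbered 136, 18 and 1470 without libraries high in Slc17a6, Alb and Plin1, 626 in odd places, 2804 in places 21 to 32, where few libraries are left, and 2 to 12 with single libraries left out.

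Of 84 genes, 20 changed sign in some alternative. In odd places alone these were Rn45s (0.0026), Pcsk2 (-0.048), Nr3c2 (-0.016), Ucp2 (0.096), Drd2 (-0.16), Drd1 (-0.070), Slc17a6 (0.72), Adora2a (-0.29), Penk (-0.46), Fkbp5 (-0.21), Itgb2 (0.0895) and Gpnmb (0.17). In places 21 to 32 they were Plin1 (0.28), Adipoq (0.23), Abhd12 (0.0087), Nr3c1 (-0.12), Faah (0.0985) and Fos (-0.51). Without libraries high in Plin1 they were Scd (0.0845), Nr3c1 (-0.0365), Faah (0.0485) and Fos (-0.32). With tissue scores they were Cnr1 (0.0455), Penk (-0.19) and Fkbp5 (-0.19), and with tissue, liver and fat scores Nr3c1 (-0.0491), Cnr1 (0.0372), Penk (-0.11), Fkbp5 (-0.0994), Itgb2 (0.0946) and Gpnmb (0.0134). Without libraries high in Slc17a6 they were Cnr1 (0.19), Penk (-0.0272) and Fkbp5 (-0.0441). With single libraries left out, Cnr1 was at -0.46 to 0.0256 (highest without vehicle neutral-cue library 4) and Fos at -0.0134 to 0.2125 (lowest without CBD anxiety-cue library 2). The cause was not tested. Of 37 list medians, 16 kept their sign in every alternative run and 21 did not. Those that crossed 0 include medium spiny neurons (lowest -0.14), interneurons (highest 0.01), septal and pallidal (0.02), myelin (0.01) and oligodendrocyte precursors (0.01), glutamate receptors (lowest -0.03), the endocannabinoid system (highest 0.03), hepatocytes (lowest -0.18) and adipocytes (highest 0.19). The rest of the 21 were the uniporter, CBD targets, glucocorticoid-responsive genes, GABA, vesicle release, neuropeptides, cortical neurons, endothelium, choroid plexus, ependyma, meninges and erythroid cells. Settings for place, and those with both kinds of score, were chosen after seeing the data. Depth limits what can be bounded: 42.9% of the genes not bounded within 2-fold had a mean under 1 CPM.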
